A study of Homo sapiens with 12 samples.

Results

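The 42 genes described here act in the G2 phase of the cell cycle or in mitosis, and are headed by the transcription factor FOXM1. They were taken by symbol from a fixed list of such genes, chosen with earlier results of these data known. Counts of members set beside all genes are therefore a description. Each member matched 1 of the 40490 Ensembl gene identifiers in the deposited tables. All 42 were among the 16468 genes that passed the filter on low values (5 or more in 47% of libraries or above). RNA-seq was run on SW1353 cells, an established human chondrosarcoma line, harvested 48 hours after transfection. The groups were cells given 50 nM of a miR-455-3p mimic, a synthetic copy of the mature microRNA; 50 nM of a miR-455-3p inhibitor, an oligonucleotide that binds it; the non-targeting inhibitor control at 50 nM; and the non-targeting mimic control at 50 nM, with 3 libraries each. All libraries are of 1 tumour cell line with no untransfected cells among them, the mature microRNA was not measured, and nothing in the labels says whether the 3 libraries of a group came from separate transfections, so p-values measure the spread between these libraries, which may be technical. Of 11 chondrocyte markers, 5 passed the filter, with SOX9 the highest of the list. Group means were 1065 to 1314 for SOX9 and 340 to 515 for COL11A1. They were 10.8 to 20.5 for ACAN and 18.4 to 41.6 for COL11A2. SOX6, COMP, MATN3 and HAPLN1 were lower, and COL2A1, COL9A1 and SOX5 had a mean under 1 over the libraries. Markers of the labelled cartilage lineage thus ranged from well expressed to at or near 0.

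FOXM1 is a forkhead transcription factor that becomes active late in S phase and in G2. Together with B-MYB and the MuvB complex it turns on the genes for entry into mitosis, the spindle and cytokinesis, while in resting cells and in G1 the DREAM complex, which shares its MuvB core, holds the same genes off. The link to DNA runs largely through a promoter element called the CHR (cell cycle genes homology region), usually with CCAAT boxes upstream of it, more than through forkhead motifs. In cartilage the genes are typical of the dividing chondrocytes of the growth plate, and in a tumour line they mark cycling cells. In bulk RNA, a larger share of cells in G2 or mitosis and more RNA of these genes per cell cannot be told apart.

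Values are the authors' normalised counts, summed per gene and not divided by gene length. Normalised totals lay between 10974101 and 12016813 per library. The libraries did not all sit with their group: on the first principal component, which held 24.99% of the variance, mimic replicate 3 scored 20.9 against -59.7 and -41.5 for mimic replicates 1 and 2, and mitochondrially encoded RNA took 6.09% of it against 7.83% and 9.43%. Across 14154 genes, the Spearman correlation of a library's deviation from the gene means with transcript GC content was -0.56 and -0.45 in mimic replicates 1 and 2 but 0.30 in mimic replicate 3, between 0.17 and 0.38 in the inhibitor libraries, between 0.30 and 0.42 in the inhibitor controls and between -0.39 and -0.22 in the mimic controls. The members are AT-rich, with a median transcript GC content of 42.9% against 48.9% over all genes, so results are given with and without mimic replicate 3 and with and without an adjustment for GC content where these change a call.

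miR-455-3p itself is shown first, because a microRNA recognises target RNAs mainly through its seed (bases 2 to 8, in capitals). RefSeq places it on chromosome 9 at chr9:114209487-114209507 on the plus strand (GRCh38.p14).
hsa-miR-455-3p: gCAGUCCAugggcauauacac

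With the mimic, FOXM1, the cyclin CCNB2 and the kinase AURKA rose over the mimic control, no member fell, and 39 of 42 did not pass the test. The 3 of 42 raised members compare with 0.686% of all genes tested that rose in this comparison. Of the 42 log2 differences, 40 were above 0, against 52.1% of all genes, with a median of 0.44 (1.35-fold) against 0.01 over all genes, and 27 had an unadjusted p under 0.05 in limma, as did 13.2% of all genes. In 25 members all 3 mimic libraries lay above all 3 mimic controls, which held for 9.92% of all genes, and in 17 the groups overlapped. In 0 members did the mimic libraries all lie below, and the share of all genes that did was not counted. The members below 0 were CDC25B and ECT2, at -0.12 and -0.12. These counts and the calls by role below use all 12 libraries. Without mimic replicate 3, 14 members were raised with the mimic, when 2.83% of all genes were.

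**Figure D1:**
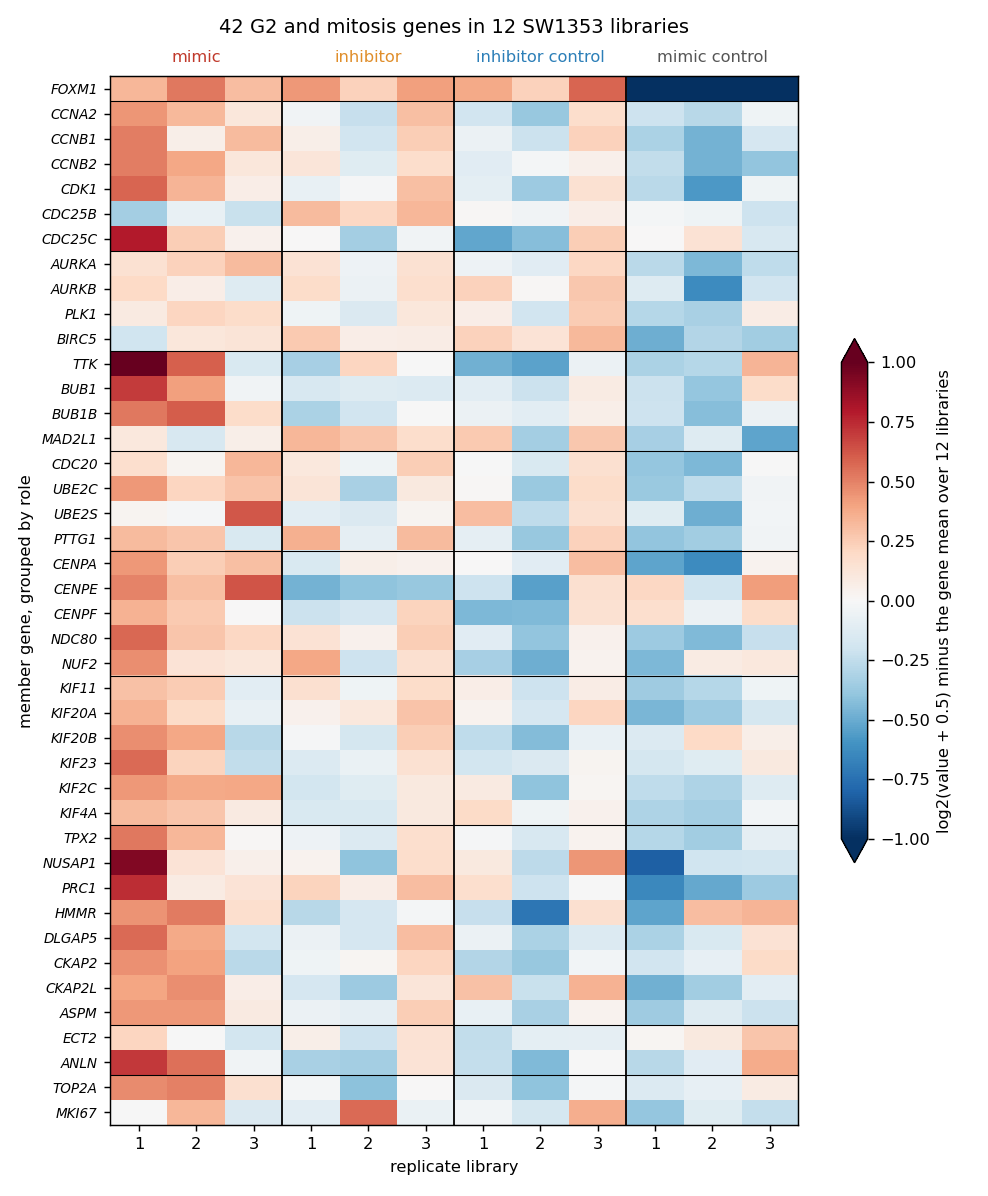
Each row is 1 of the 42 members, grouped by role, and each column 1 of the 12 libraries; colour is log2(value + 0.5) minus the gene's mean over the 12 libraries. FOXM1 is low in the 3 mimic controls (264 to 330.3 normalised counts) and high in the other 9 libraries, while mimic replicate 3 is the lowest mimic library in 28 of the other 41 rows and the highest in 5, AURKA, BIRC5, CDC20, UBE2S and CENPE.

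FOXM1 had the largest log2 difference of the 42 members with the mimic. It had 852, 980.4 and 840.1 normalised counts in the mimic libraries, 917, 796 and 904 in the inhibitor libraries, 882, 797 and 1018 in the inhibitor controls and 328, 330.3 and 264 in the mimic controls. The 3 mimic controls stood apart, with no overlap, from the other 9 libraries, which overlapped one another. With the mimic FOXM1 averaged 891 ± 77.8 against 307 ± 37.8 in the mimic control (SD, n = 3 each), a log2 difference of 1.54 ± 0.12 (SE; 95% interval 1.28 to 1.80; limma adjusted p = 4.05e-05). With the inhibitor it averaged 873 ± 66.4 against 899 ± 111 in the inhibitor control, a log2 difference of -0.04 ± 0.12 (95% interval -0.30 to 0.22; adjusted p = 0.921). The inhibitor control lay above the mimic control by 1.55 ± 0.12 (adjusted p = 3.77e-05), and the mimic libraries differed from the inhibitor control by -0.01 ± 0.12 (95% interval -0.27 to 0.25; adjusted p = 0.968). FOXM1 in the mimic libraries was thus above the mimic control, while its difference from the inhibitor control was smaller than the spread between replicates. The two-sided exact permutation test on 3 against 3 libraries gave p = 0.1 for the mimic and for the inhibitor control, each against the mimic control, which is the smallest p it can give, 0.9 for the inhibitor against its control and 1.0 for the mimic against the inhibitor control.

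FOXM1 (ENSG00000111206) lies on chromosome 12 at chr12:2857681-2877155 on the minus strand (GRCh38), where RHNO1 and ITFG2 overlap it on the opposite strand. Whether reads were assigned by strand is not given in the sources used here, so reads in the overlaps could be misplaced. RHNO1, which acts in the checkpoint response to DNA damage, averaged 187 ± 31.5 in the mimic libraries, 165 ± 18.9 in the inhibitor libraries, 151 ± 58.4 in the inhibitor controls and 206 ± 32.0 in the mimic controls, an order unlike that of FOXM1, and its log2 difference was -0.14 for mimic against mimic control and -0.50 for inhibitor control against mimic control. ITFG2 had 0.35 and 0.32 in the same comparisons. Neither gene passed the test. Overlaps are common in the list, with 25 of 42 members sharing bases with another annotated gene and 20 with one on the opposite strand. Listed pseudogenes and close copies of members (PTTG2, PTTG3P and KIF4B among them) stayed at or below 4.39 in each library.

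Among the cyclins, CDK1 and the CDC25 phosphatases, which together form and activate the kinase that drives entry into mitosis, 5 of 6 lay above 0 with the mimic and 1 rose. CCNB2 encodes cyclin B2, a partner of CDK1. It had 366, 337 and 278 in the mimic libraries, 279, 237 and 291 in the inhibitor libraries, 237, 253 and 266 in the inhibitor controls and 217, 185 and 195 in the mimic controls. The mimic libraries lay above both sets of controls, and mimic replicate 3 was the lowest of its group and inside the range of the inhibitor libraries. The log2 difference against the mimic control was 0.71 ± 0.13 (adjusted p = 0.0229). The call was lost without any 1 of the 3 mimic controls or of mimic replicates 1 and 2 (adjusted p up to 0.116). CCNB1, the gene of cyclin B1, had 595, 434 and 521 in the mimic libraries against 334, 301 and 370.3 in the mimic controls, without overlap, and missed the threshold (log2 0.62 ± 0.15; adjusted p = 0.101). CDK1, the kinase itself, had 618, 522 and 433 in the mimic libraries against 343, 278 and 400.4 in the mimic controls (log2 0.62 ± 0.18; adjusted p = 0.138). CCNA2, the gene of cyclin A2, which pairs with CDK2 and CDK1, had 1001, 923 and 796 in the mimic libraries against 638, 608 and 715 in the mimic controls (log2 0.47 ± 0.16; adjusted p = 0.211), and CDC25C, a further CDK1-activating phosphatase, had 98.0, 66.9 and 58.2 in the mimic libraries against 56.6, 62.4 and 50.4 in the mimic controls (log2 0.36 ± 0.24; adjusted p = 0.572). None of these 3 passed the threshold. CDC25B, a phosphatase that activates CDK1, had another order of groups. It had 1650.3, 1981 and 1789.98 in the mimic libraries, 2602, 2408 and 2626 in the inhibitor libraries, 2107, 2036 and 2188 in the inhibitor controls and 2058, 2023 and 1804 in the mimic controls. Its highest group was the inhibitor, whose 3 libraries lay above the other 9, and per 1000 bases of exon it was also the most abundant member, at 488 normalised counts per kilobase averaged over the groups. Neither of its differences passed, at log2 -0.12 ± 0.08 with the mimic (adjusted p = 0.596) and 0.27 ± 0.08 with the inhibitor (adjusted p = 0.156).

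All 4 mitotic kinases and chromosomal passenger genes lay above 0 with the mimic, none with overlap between the groups, and 1 rose. AURKA encodes Aurora A, the kinase of centrosomes and spindle poles. It had 545, 575 and 609 in the mimic libraries, 541, 473 and 546 in the inhibitor libraries, 472, 452 and 565 in the inhibitor controls and 406, 358 and 412 in the mimic controls. The mimic libraries lay above the mimic controls and overlapped the other groups, and the log2 difference against the mimic control was 0.56 ± 0.11 (adjusted p = 0.0357). The call was lost without any 1 of the 3 mimic controls, mimic replicates 1 and 2, inhibitor control replicate 1 or inhibitor replicates 1 and 3 (adjusted p up to 0.170). BIRC5 encodes survivin, a subunit of the chromosomal passenger complex. It had 114, 142 and 143 in the mimic libraries, 157, 137 and 138 in the inhibitor libraries, 154, 144 and 164 in the inhibitor controls and 93.2, 107 and 103 in the mimic controls. Here the inhibitor controls averaged highest and the mimic controls lowest, and the difference passed between the 2 controls (log2 0.60 ± 0.13; adjusted p = 0.018) but not with the mimic (log2 0.39 ± 0.13; adjusted p = 0.209). The first was lost without mimic control replicate 1 or 3 or inhibitor control replicate 1 or 3 (adjusted p up to 0.0681). PLK1, a kinase of mitotic entry, centrosomes and kinetochores, had 181, 198 and 193 in the mimic libraries against 139, 136 and 179 in the mimic controls (log2 0.34 ± 0.15; adjusted p = 0.335). AURKB, the kinase of the chromosomal passenger complex, had 191, 174 and 151.3 in the mimic libraries against 151.2, 107 and 145 in the mimic controls (log2 0.36 ± 0.15; adjusted p = 0.331). Neither passed.

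**Figure D2:**
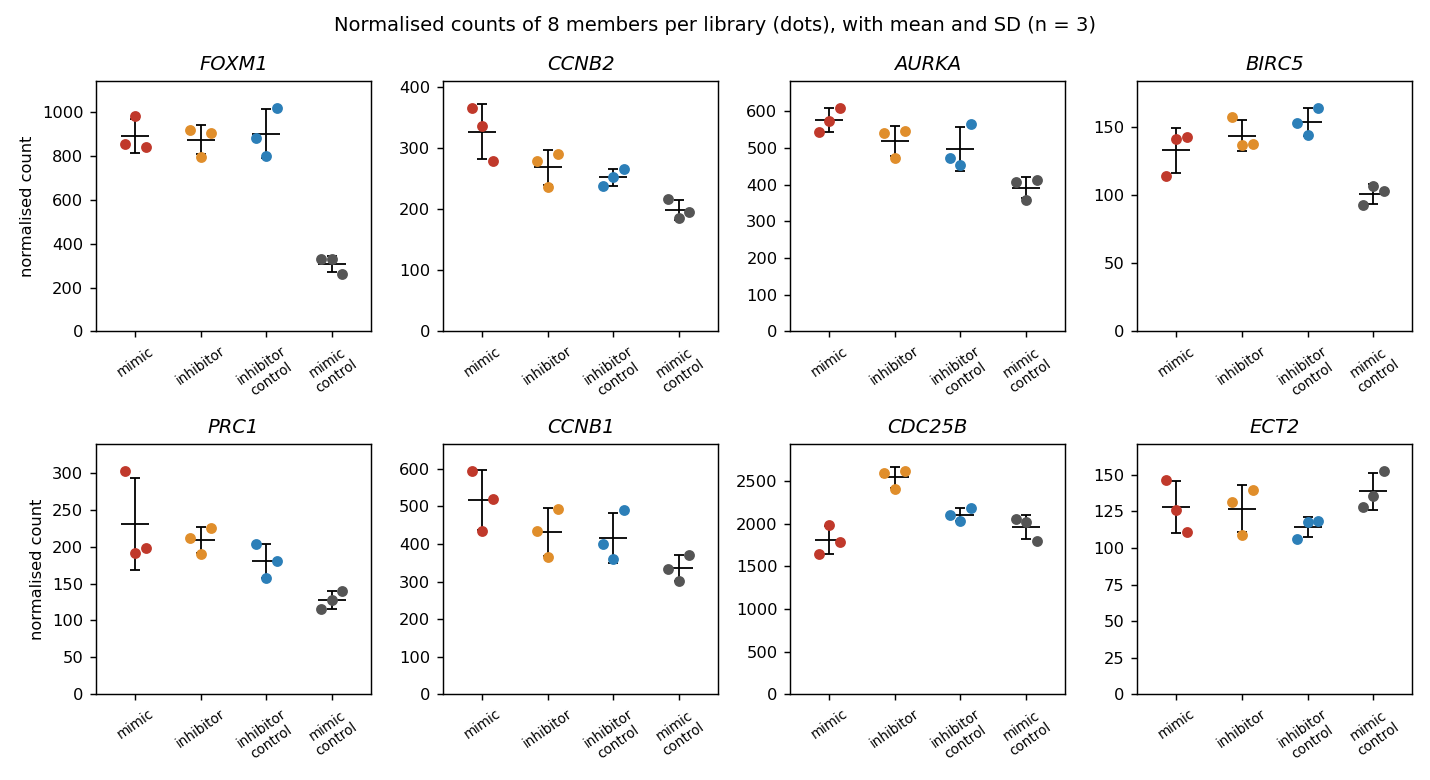
Normalised counts (vertical axis, from 0) of 8 members in each library (dots), with the mean and SD of each group (n = 3). FOXM1 separates the mimic control from the other 3 groups, CCNB2 and AURKA rank the mimic first and the mimic control last, and CDC25B is highest with the inhibitor.

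The spindle checkpoint genes TTK, BUB1, BUB1B and MAD2L1, which hold anaphase back until chromosomes are attached, all lay above 0 with the mimic and none passed. BUB1B had 79.9, 84.1 and 62.8 in the mimic libraries against 47.7, 40.9 and 53.1 in the mimic controls (log2 0.67 ± 0.18; adjusted p = 0.115). BUB1 had 293, 239.7 and 176 against 155, 137 and 205, where mimic replicate 3 fell inside the range of the mimic controls (log2 0.50 ± 0.19; adjusted p = 0.259). TTK was spread most widely, with 69.2, 51.2 and 30.3 in the mimic libraries against 26.9, 27.6 and 42.7 in the mimic controls, and its interval ran from -0.09 to 1.25.

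The next 4 members act with the anaphase-promoting complex, the ubiquitin ligase that ends mitosis: its activator CDC20, the ubiquitin-conjugating enzymes UBE2C and UBE2S, and securin, encoded by PTTG1. Their log2 differences with the mimic lay between 0.41 and 0.53, all with an unadjusted p under 0.05 and none past the threshold. UBE2C had 386, 332 and 348 in the mimic libraries against 221, 239 and 278 in the mimic controls (log2 0.53 ± 0.16; adjusted p = 0.167). CDC20 had 528, 477 and 589 against 358, 343 and 468 (log2 0.46 ± 0.14; adjusted p = 0.158). The groups did not overlap for either gene.

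At the centromere and kinetochore, where chromosomes meet spindle fibres, the 5 members lay between 0.11 and 0.70 and none passed. CENPA, the histone H3 variant of centromeres, had 136, 119 and 124 in the mimic libraries against 69.6, 64.9 and 103 in the mimic controls (log2 0.70 ± 0.18; adjusted p = 0.113). NDC80, which binds microtubules, had 107, 87.2 and 82.9 against 55.9, 52.8 and 61.1 (log2 0.70 ± 0.16; adjusted p = 0.0807). Both were free of overlap. CENPE, a kinetochore motor, was the least abundant member per 1000 bases and had 42.6, 37.1 and 46.7 in the mimic libraries, 21.5, 22.5 and 23.0 in the inhibitor libraries, 25.9, 20.4 and 33.6 in the inhibitor controls and 34.7, 26.1 and 40.2 in the mimic controls, with overlap between the mimic and its control. CENPF, a large kinetochore protein, had 139, 130.1 and 109 in the mimic libraries against 122, 104 and 123 in the mimic controls (log2 0.11 ± 0.19; adjusted p = 0.863).

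The 6 kinesin motors, which move along or take apart spindle microtubules, lay between 0.15 and 0.63. KIF2C, a microtubule depolymerase, had 183, 176 and 177 in the mimic libraries against 113, 109 and 124 in the mimic controls (log2 0.63 ± 0.14; adjusted p = 0.0732). KIF4A, a chromosome-bound kinesin, had 441, 430.02 and 376 against 287, 281 and 349 (log2 0.45 ± 0.12; adjusted p = 0.119). KIF11, the motor that pushes spindle poles apart, KIF20A and KIF23, which act in the central spindle, and KIF20B had log2 differences of 0.37, 0.49, 0.25 and 0.15 in that order. No kinesin passed the threshold with all 12 libraries. Without mimic replicate 3, when 2.83% of all genes were raised, KIF11, KIF20A, KIF2C and KIF4A passed it.

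All 8 spindle microtubule proteins lay above 0, from 0.22 to 0.83. PRC1 crosslinks the microtubules of the central spindle. It had 303, 192 and 199 in the mimic libraries, 211, 189.98 and 225 in the inhibitor libraries, 203, 157 and 181 in the inhibitor controls and 116, 127 and 140.4 in the mimic controls. The mimic controls lay below the other 9 libraries, and the mimic mean was raised most by replicate 1. Its difference with the mimic, 0.83 ± 0.17, was the next after FOXM1 in size and just outside the threshold (adjusted p = 0.0515). TPX2, which activates AURKA on the spindle, had 1868, 1629 and 1301 against 1063, 1019 and 1214 (log2 0.53 ± 0.13; adjusted p = 0.0911). NUSAP1, which bundles spindle microtubules, and HMMR and DLGAP5, which bind them, lay at 0.77 ± 0.26, 0.34 ± 0.24 and 0.36 ± 0.20 in that order, and none of them passed. PRC1 shares bases with another protein-coding gene on its own strand, as do BUB1B, CENPA and NUSAP1, so the estimated counts of these members are uncertain.

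The last 4 members act in cytokinesis and on mitotic chromosomes. ECT2, an exchange factor for the small GTPase RHOA in the cleavage furrow, had 147, 126 and 111 in the mimic libraries, 132, 109 and 139.8 in the inhibitor libraries, 106, 118 and 119 in the inhibitor controls and 128, 135 and 153 in the mimic controls, so that the mimic controls were here the highest group. ANLN, a scaffold of the contractile ring, had 454.8, 408 and 272 in the mimic libraries against 229.98, 258 and 361 in the mimic controls, with overlap. TOP2A, a topoisomerase that untangles sister chromatids, had 186, 191 and 150.5 against 122, 126 and 142 (log2 0.43 ± 0.16; adjusted p = 0.256). MKI67, the proliferation marker that coats mitotic chromosomes, had 62.0, 78.6 and 56.3 against 47.5, 57.0 and 52.7 (log2 0.31 ± 0.22; adjusted p = 0.599).

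**Figure D3:**
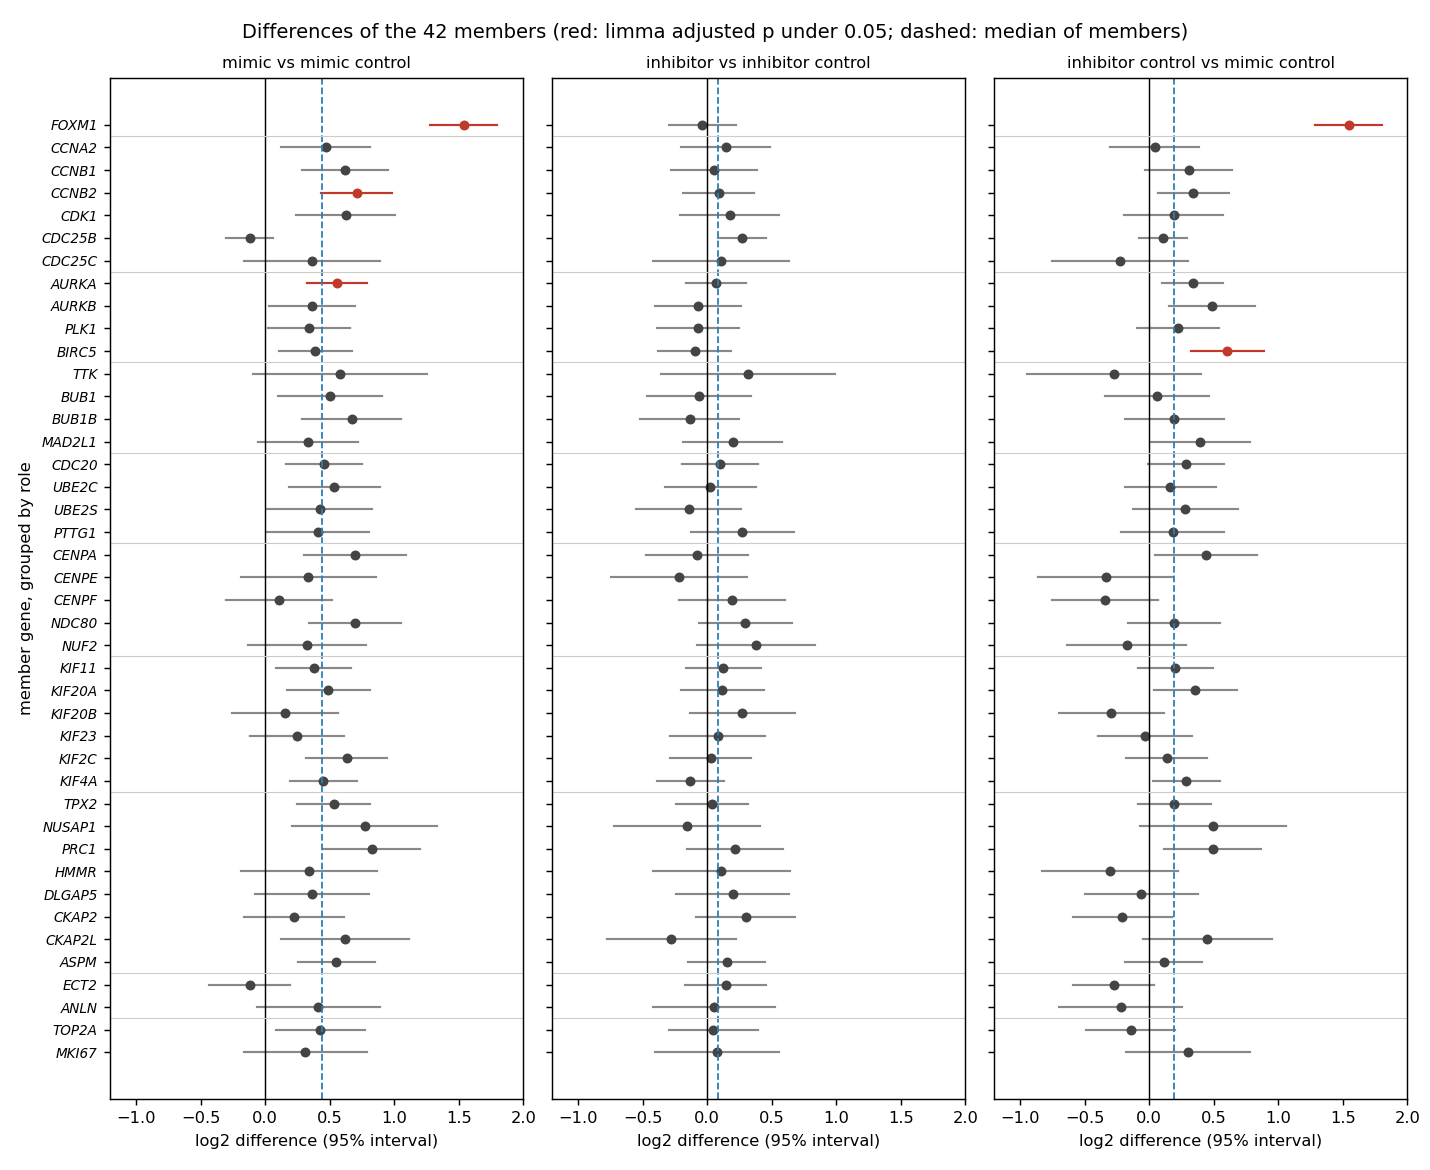
Log2 differences (horizontal axis) of the 42 members with 95% intervals in 3 comparisons; red marks a limma adjusted p under 0.05 and the dashed line the median of the members. The points lie right of 0 for 40 members with the mimic (median 0.44), cluster at 0 with the inhibitor (median 0.08) and spread to both sides between the controls (median 0.19), where FOXM1 stands apart at 1.55.

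Promoters were read for members with an entry in the RefSeq table, 36 of 42, over 250 bases before to 50 after the start (GRCh38.p14), and both strands were searched. FOXM1, AURKA, BIRC5, TTK, UBE2C and TPX2 had no entry, so of the members called in any comparison only CCNB2 was searched. The CHR letters TTTGAA were in 24 of 36 member promoters (66.7%) against 12.1% of 15843 promoters of coding genes, and the variant TTTAAA in 13 (36.1%) against 9.70%. CCAAT was in 27 (75%) against 36.4%, and 17 (47.2%) had 2 or more against 12.5%. A CHR form together with a CCAAT was found in 23 (63.9%) against 7.95%. The E2F letters TTTCCCGC, TTTCGCGC, TTTGCCGC or TTTGGCGC were in 3 (8.33%) against 4.44%, and the forkhead letters GTAAACA in 1, that of CDK1 (2.78%), against 2.61%. A match is a description of the letters and not a bound site. The 150 bases before the start are shown for CCNB2, which rose with the mimic, for PRC1, KIF2C and NDC80, which among uncalled members with an entry had the smallest p with the mimic, and for ECT2, which lay below 0, with whole CHR, CCAAT, E2F and forkhead matches in capitals (a CCAAT on the opposite strand reads ATTGG).
CCNB2 (chr15:59104996-59105145, plus strand): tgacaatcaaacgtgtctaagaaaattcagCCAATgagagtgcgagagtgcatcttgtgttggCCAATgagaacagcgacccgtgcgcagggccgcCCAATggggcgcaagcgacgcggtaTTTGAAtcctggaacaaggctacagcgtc
PRC1 (chr15:90994536-90994685, minus strand): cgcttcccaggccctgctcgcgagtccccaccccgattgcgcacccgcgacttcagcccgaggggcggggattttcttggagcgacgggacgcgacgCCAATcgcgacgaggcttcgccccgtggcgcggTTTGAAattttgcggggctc
KIF2C (chr1:44739687-44739836, plus strand): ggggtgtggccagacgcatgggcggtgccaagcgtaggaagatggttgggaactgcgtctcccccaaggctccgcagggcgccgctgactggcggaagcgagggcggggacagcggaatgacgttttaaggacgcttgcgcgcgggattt
NDC80 (chr18:2571407-2571556, plus strand): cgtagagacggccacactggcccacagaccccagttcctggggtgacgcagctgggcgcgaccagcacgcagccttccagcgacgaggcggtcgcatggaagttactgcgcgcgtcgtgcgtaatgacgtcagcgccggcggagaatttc
ECT2 (chr3:172750576-172750725, plus strand): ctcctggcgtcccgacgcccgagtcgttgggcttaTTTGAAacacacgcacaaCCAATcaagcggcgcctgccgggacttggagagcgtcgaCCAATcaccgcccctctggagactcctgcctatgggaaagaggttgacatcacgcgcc
The CCNB2 stretch carries 3 CCAAT boxes and a TTTGAA, and the PRC1 stretch 1 CCAAT box and a TTTGAA. The KIF2C and NDC80 stretches hold no whole match, and in each a CHR form (TTTAAA and TTTGAA, the second on the opposite strand) begins 3 bases before the start and runs past it. The ECT2 stretch carries a TTTGAA and 2 CCAAT boxes.

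With the inhibitor the list stayed near its control. Of the 42 members 0 were called by limma, 1 (CDC25B) had an unadjusted p under 0.05, as did 14.5% of all genes, and 1.55% of all genes were called in either direction. The log2 differences lay between -0.28 (CKAP2L, a mitotic spindle protein) and 0.38 (NUF2, a partner of NDC80). Their median was 0.08 against 0.03 over all genes, and 30 of 42 were above 0, against 53.8% of all genes. In 2 members, CDC25B and NDC80, the inhibitor libraries lay above their controls without overlap, against 14.4% of all genes. NUF2 had 117, 77.5 and 100.1 in the inhibitor libraries against 71.0, 63.6 and 91.5 in the inhibitor controls, and CKAP2L 31.2, 27.2 and 38.2 against 43.2, 30.1 and 44.9, both with overlap. The 95% intervals of the members spanned up to 1.35 on the log2 scale, and that of FOXM1, -0.30 to 0.22, ended short of the 1.54 it had with the mimic.

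The 2 non-targeting controls were compared with each other, a comparison that shares the mimic control libraries with that of the mimic. FOXM1 and BIRC5 were higher in the inhibitor control and 0 members were lower. The 2 of 42 raised members compare with 4.74% of all genes that were raised, a share near that of the members. The median difference was 0.19 against -0.02 over all genes, and 29 of 42 members were above 0, against 47.9% of all genes. Above without overlap lay 7 of 42 members, a smaller share than the 19.7% of all genes. ECT2 lay below without overlap, at 106, 118 and 119 in the inhibitor controls against 128, 135 and 153 in the mimic controls. How many of all genes lay below in this way was not counted. AURKA, at 472, 452 and 565 against 406, 358 and 412, was above without overlap and missed the threshold (log2 0.34 ± 0.11; adjusted p = 0.0641).

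Set against the inhibitor control instead, the mimic libraries were again higher for most members, but none passed. Of 42 members 0 were called by limma, against 4.35% of all genes in either direction, while 21 had an unadjusted p under 0.05 (27.9% of all genes). Above 0 were 37 members (55.0% of all genes), and the median was 0.33 against 0.05 over all genes. Non-overlap held upward for 10 members, against 15.0% of all genes. It held downward for 2, CDC25B and BIRC5. The downward share of all genes was not counted, so the 2 cannot be judged against it. TOP2A had the smallest p, with 186, 191 and 150.5 in the mimic libraries against 121, 101 and 132 in the inhibitor controls (log2 0.57 ± 0.16; adjusted p = 0.0575). Without mimic replicate 3, 17 members were raised, when 17.7% of all genes were, and with array weights, which gave mimic replicate 3 a weight of 0.212, 19 were, when 16.9% of all genes were. After adjustment for GC content the median was 0.14 and 0 members were called.

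Whether the mimic and inhibitor differences were unequal was tested as an interaction. FOXM1 passed, with a mimic effect minus inhibitor effect of 1.58 ± 0.17 (95% interval 1.21 to 1.94; adjusted p = 0.000946), as did 0.625% of all genes upward. This contrast contains the gap between the controls, which for FOXM1 was 1.55. Per kilobase of exon, FOXM1 averaged 182 in the mimic and 178 in the inhibitor libraries. It averaged 62.7 in the mimic control and 184 in the inhibitor control. Most of the 1.58 was thus the gap between the controls, and mimic against inhibitor was not tested directly. No other member passed the interaction test, and 15 had an unadjusted p under 0.05 (12.8% of all genes). The median was 0.40 against -0.01 over all genes, with 36 of 42 above 0, against 49.1% of all genes. CCNB2 was at 0.62 ± 0.18 (adjusted p = 0.151) and CDC25B, at -0.39 ± 0.12 (adjusted p = 0.176), was below 0.

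Library by library, the members other than FOXM1 gave a different order from FOXM1. The median log2 deviation of these 41 genes from their means was 0.44, 0.28 and 0.07 in mimic replicates 1 to 3, -0.03, -0.13 and 0.16 in the inhibitor libraries, -0.06, -0.25 and 0.15 in the inhibitor controls and -0.29, -0.29 and -0.04 in the mimic controls. The spread within a group was as wide as some gaps between groups, with mimic control replicate 3 above inhibitor control replicate 2. FOXM1 deviated by 0.33, 0.53 and 0.31 in the mimic libraries, by 0.44, 0.23 and 0.41 in the inhibitor libraries, by 0.38, 0.23 and 0.59 in the inhibitor controls and by -1.05, -1.04 and -1.36 in the mimic controls. Mimic control replicate 3 thus had the lowest FOXM1 of all libraries and the highest median of the other members among the mimic controls.

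**Figure D4:**
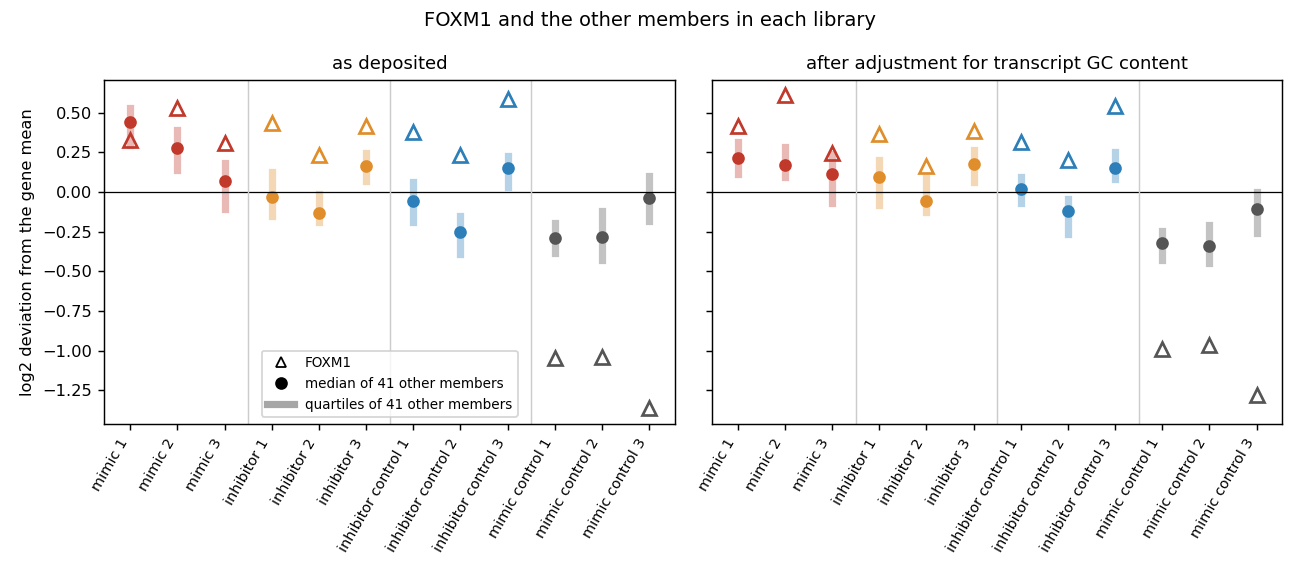
Log2 deviation from the gene mean (vertical axis) of FOXM1 (triangles) and of the 41 other members (dots, median; bars, quartiles) in each library, as deposited and after adjustment for transcript GC content. Adjustment draws mimic replicates 1 and 2 down to 0.22 and 0.17 and mimic replicate 3 up to 0.11, and leaves FOXM1 in the mimic controls between -1.28 and -0.96.

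The same adjustment, chosen after the GC pattern was seen, evened out the mimic libraries and raised the counts of calls. After it, 12 members were raised with the mimic (ASPM, AURKA, BUB1B, CCNB1, CCNB2, CDK1, FOXM1, KIF2C, KIF4A, NDC80, PRC1 and TPX2), against 2.01% of all genes. Between the controls, 12 were raised in the inhibitor control (ASPM, AURKA, BIRC5, CCNB1, CCNB2, CDK1, CKAP2L, FOXM1, KIF11, KIF4A, MAD2L1 and PRC1), against 5.65% of all genes. The median with the mimic was 0.41 and between the controls 0.24. Without mimic replicate 3 and with no adjustment, 14 members were raised with the mimic, when 2.83% of all genes were. They were ASPM, AURKA, BUB1, BUB1B, CCNB2, CDK1, FOXM1, KIF11, KIF20A, KIF2C, KIF4A, NDC80, PRC1 and TPX2. With mimic control replicate 1 or 2, or mimic replicate 1 or 2, left out instead, FOXM1 was the 1 raised member. The Spearman correlation of the differences with transcript GC content across 14154 genes was 0.50 for the inhibitor control against the mimic control and -0.53 for the mimic against the inhibitor control, and -0.03 both for the mimic and for the inhibitor against its own control. Over the 42 members the values were 0.58, -0.58, 0.24 and -0.36 in that order. The -0.03 of the mimic comparison averages over mimic libraries of unlike sign. For single libraries against the gene means, the correlation was -0.56, -0.45 and 0.30 in mimic replicates 1 to 3. Genes are not independent replicates, and beyond the adjusted values the part of GC content in the results was not tested.

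**Figure D5:**
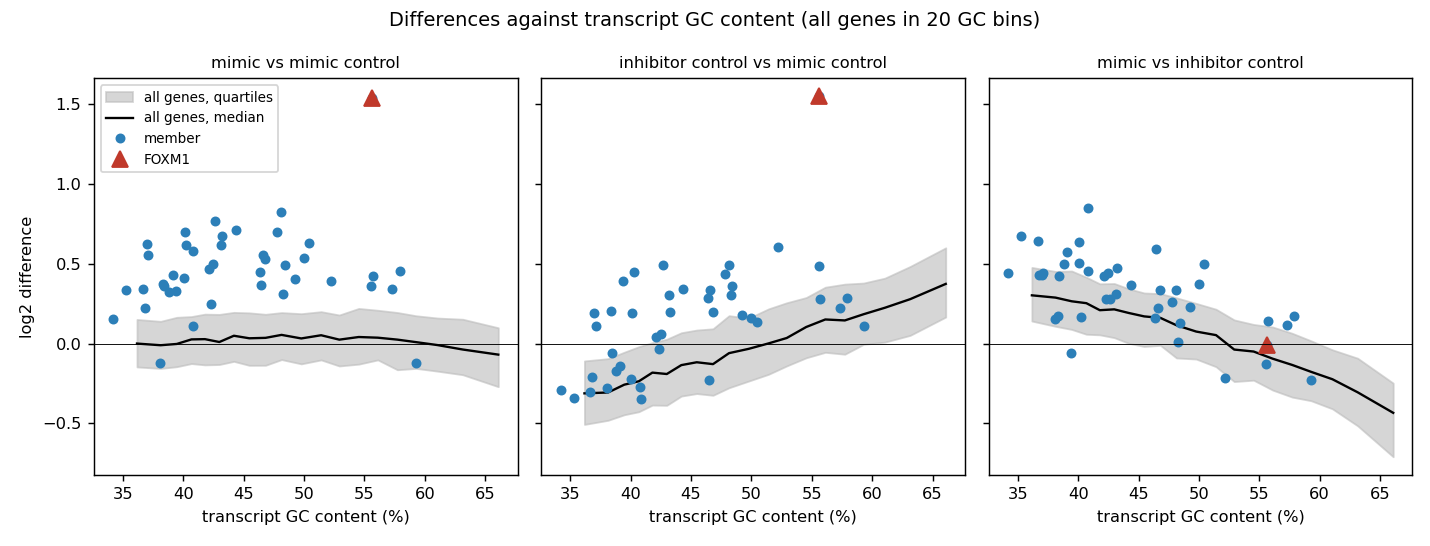
Log2 difference (vertical axis) against transcript GC content (%) in 3 comparisons; the line and band give the median and quartiles of all genes in 20 bins of GC content, dots the members and the triangle FOXM1. In the mimic comparison 40 of 42 members lie above 0 while the line of all genes is nearly flat. That line averages over mimic libraries whose GC correlations differ in sign. In the other 2 comparisons the members slope with the line, and FOXM1 is far above the line in the 2 comparisons that hold the mimic control.

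Genes of the same processes outside the list were counted in the same way, in lists also chosen with earlier results of these data known. Of 72 other G2 and mitosis genes, 4 rose with the mimic (0.686% of all genes did) and 0 fell, with a median of 0.37 and 70 above 0 (52.1% of all genes). They were PRR11 at 1.29, GTSE1, which restrains p53 in G2, at 0.76, FAM83D, a spindle protein, at 0.65 and ZWINT, a kinetochore protein, at 0.83. In the inhibitor control 17 of the 72 were raised over the mimic control, as were 4.74% of all genes. With the inhibitor 0 were raised over its control, as were 0.765% of all genes. Of 48 genes of G1/S and DNA replication, 3 rose with the mimic (POLA1, UHRF1 and RRM2), against 0.686% of all genes. In the inhibitor control 14 were raised, against 4.74% of all genes. The medians were 0.26 and 0.40 in that order. Over all 16468 genes tested, 125 were called with the mimic in either direction and 13.2% had an unadjusted p under 0.05. Among 20 genes of the DREAM, MuvB, RB and E2F factors, 0 were called with the mimic by limma (5 at an unadjusted p under 0.05, median 0.10). In the inhibitor control 4 were higher, against 4.74% of all genes, among them E2F1 at 1.16. Of 15 subunits and activators of the anaphase-promoting complex 0 were called with the mimic (1 at an unadjusted p under 0.05), of 8 CDK inhibitors 0 (3 at an unadjusted p under 0.05) and of 17 tested forkhead genes other than FOXM1 0 (4 at an unadjusted p under 0.05, median -0.15). Of these forkhead genes 4 of 17 were above 0, against 52.1% of all genes.

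The members' 3′ UTRs were searched for the letters that pair with the miR-455-3p seed. TGGACTG was in the longest annotated 3′ UTR of 7 of 42 members (16.7%) against 11.98% of 18805 coding genes (UTRs of 50 bases or more), and with GGACTGA included 8 of 42 (19.0%) against 17.9%, the members' UTRs being shorter (median 787.5 against 1134 bases). FOXM1, CCNB2 and AURKA held none. The members with a match were MKI67, CENPA, CKAP2, KIF2C, MAD2L1, TTK, UBE2S and CDC25B. Windows of 30 bases (GRCh38, match in capitals) are shown for MKI67, whose match has the further A of an 8-base site, for CENPA and KIF2C, 2 named members, and for CDC25B, the member with GGACTGA alone.
MKI67 (chr10:128098984-128099013, minus strand): ctgggctccTGGACTGAgaatagttgaaca
CENPA (chr2:26794306-26794335, plus strand): gtaactgagTGGACTGtgcttgtcaacgga
KIF2C (chr1:44767482-44767511, plus strand): ctgcctgcgTGGACTGgctgctaatggaga
CDC25B (chr20:3805990-3806019, plus strand): gctaaaccaaGGACTGAgcaccctctggat
With the mimic these 4 genes had log2 differences of 0.31, 0.70, 0.63 and -0.12 in that order, and none passed the test.

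Some genes outside the list lay nearer to FOXM1 than any fellow member did. The measure used counts the size of a change as well as its pattern. By the root mean square difference of log2 values centred on each gene's mean over the 12 libraries, the nearest of 16467 genes were B4GALT1, a galactosyltransferase, at 0.175, FAM234A at 0.225, the protein disulphide isomerase PDIA6 at 0.234, POGLUT3 at 0.242 and MAZ, a zinc finger factor, at 0.248. B4GALT1 averaged 7589 ± 552 in the mimic libraries, 6203 ± 166 in the inhibitor libraries, 7095 ± 19.9 in the inhibitor controls and 2088 ± 89.3 in the mimic controls. Of the members, PRC1 ranked 128, BIRC5 163, CCNB2 229 and AURKA 278. This ordering is a description over 12 libraries in 4 groups. For all 5 nearest genes the mimic control had the lowest mean, which follows from choosing genes by their likeness to FOXM1.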

How the data were processed

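Total RNA of 12 SW1353 samples was purified with Trizol and sequenced by a commercial provider. Per the labels, the authors used FastQC and Trim Galore on the reads, then kallisto and sleuth against hg38. Tool versions, annotation release and strand setting are not given in the sources used here. Each signal in a deposited table is an estimated count per Ensembl gene after division by the size factor of its library, without length correction, so that read depth itself is unknown. Whether the mimic and inhibitor arms were scaled together is likewise not given. Normalised totals were 10974101 to 12016813, and 0 pairs of libraries held identical values.

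Identifiers were matched to symbols with a gene name table (35521 of 40490), to coordinates and 3′ UTRs in GENCODE (GRCh38) and to RefSeq sequences (GRCh38.p14). Values were analysed as log2(value + 0.5), on which scale changes of low genes are understated. Genes at 5 or more in at least 47% of libraries were fitted with 4 group means over all 12 libraries in limma 3.58.1 (R 4.3.3, eBayes with an intensity trend, two-sided), with Benjamini-Hochberg adjustment over 16468 genes and a threshold of 0.05, in 5 comparisons. The fit was tested on simulated data. "Rose" and "fell" refer to calls past this threshold. Searches, tables and plots used Python 3.11.15, pandas 2.3.3, scipy 1.17.1 and matplotlib 3.10.9. The GC adjustment, added after the data were seen, subtracted a lowess curve (span 0.3) of each library's deviations on transcript GC content over 14154 coding genes.

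The members and lists were chosen with earlier results of these data known. Members named were FOXM1, those called in any comparison, the 2 smallest p-values per role with the mimic and the 2 highest and 2 lowest differences with the mimic and with the inhibitor; other names were chosen after their values were seen. Alternatives covered pseudocounts, filters, scaling, the libraries fitted, array weights, the intensity trend, a replicate block and each library left out.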

Additional observations from a re-analysis of the deposited data

Results flagged for a closer look

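FOXM1 was the 1 member whose mimic and inhibitor differences were unequal by the interaction test, by 1.58 on the log2 scale (SE 0.17, limma adjusted p = 0.000946). It averaged 891 normalised counts in the mimic libraries against 307 in the mimic controls, and 873 in the inhibitor libraries against 899 in the inhibitor controls (n = 3 each). The direction was the same in 3 of 3 mimic libraries, all of which lay above all mimic controls, while inhibitor libraries and their controls overlapped. The inhibitor control and mimic control libraries themselves differed in FOXM1 by 1.55 on the log2 scale. This gap is contained in the 1.58 and makes up most of it. Which of the controls is nearer to untreated cells was not measured.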

How the results depend on the processing

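FOXM1 was called in all 24 alternatives against the mimic control, both for the mimic (log2 1.43 to 1.61) and for the inhibitor control (1.43 to 1.63), and in the interaction in the 23 that could be run (1.47 to 1.66); no interaction was possible with the compared groups alone. Over the 41 other members, comparisons and alternatives, 4722 values kept their side of the threshold, 135 passed it and 22 lost it, with the direction of each called value kept. No member was lowered in any setting.

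Counts of raised members moved more, and the share of all genes raised, given in brackets, moved with them. With the mimic against its control (3 members, 0.686%), the count was 1 with the compared groups alone (0.121%) or without the intensity trend (0.407%), 13 with array weights (2.14%), whose estimation stopped before its convergence tolerance, 12 after GC adjustment (2.01%) and 13 after GC adjustment without mimic replicate 3 (2.95%). It ranged from 1 to 14 with 1 library left out, 14 being without mimic replicate 3 (2.83%). For the inhibitor control against the mimic control (2 members, 4.74%), it was 4 after quantile normalisation (5.42%), 5 with the compared groups alone (11.5%, a share near that of the members), 8 with array weights (13.2%), 12 after GC adjustment (5.65%) and 14 after GC adjustment without mimic replicate 3 (8.68%). It ranged from 1 to 5 with 1 library left out, 5 being without mimic replicate 3 (1810 of 16468 genes). For the mimic against the inhibitor control (0 members, 2.97%), it was 1 at a mean of at least 20 (4.71%), 19 with array weights (16.9%), 1 after GC adjustment without mimic replicate 3 (8.41%), and 0 to 17 with 1 library left out, 17 being without mimic replicate 3 (17.7%). For the inhibitor against its control (0 members, 0.765%), it was 1 with array weights (3.95%) and 1 after GC adjustment without mimic replicate 3 (2.80%), both times CDC25B. For the interaction (1 member, 0.625%), it was 5 with array weights (2.13%), 2 after GC adjustment (1.65%), 4 after GC adjustment without mimic replicate 3 (2.35%), and 1 to 3 with 1 library left out, 3 being without mimic replicate 3 (1.70%). The cause was not tested.

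Groups share the numbers 1 to 3 in the labels. Deviations of same-numbered libraries correlated between -0.18 and 0.06 over 18 pairs across genes, so the numbers were not taken to pair them. With a replicate block, and the share of all genes raised in brackets, the raised members were 4 with the mimic (0.540%, CCNB1 added) and 2 between the controls (3.00%). There were 0 with the inhibitor (0.577%), 0 for the mimic against the inhibitor control (0.692%) and 1 in the interaction (0.383%).

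With 3 libraries a group and unknown read depth, differences of the members below roughly the width of their intervals were not detectable.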
